A study of Mus musculus with 2 samples.

Results

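The genes described here are the metallothioneins Mt1 and Mt2, their zinc-sensing regulator Mtf1, and 5 zinc and manganese transporters (Slc30a1, Slc30a10, Slc39a4, Slc39a8 and Slc39a14). They are 8 of the 18193 genes named on the array, and every probe set whose platform gene symbol is one of these names was taken, 19 in all. The genes were chosen by function, and with an earlier reading of the same null and wild-type signals in view, in which Mt2 was among the genes with the largest differences. Their values are therefore a description, without a test.

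The study measured liver RNA of male 129SvEJ mice, 8 weeks old, on expression arrays with 45101 probe sets. One group was Ppara-null (pparalpha-/-) and the other wild type, and both received 0.2% fenofibrate in chow for 7 days, so the drug is common to both groups. RNA of 3 mice was pooled per genotype and hybridised to 1 array. There are no replicates, all values are single measurements, and neither a standard error nor a p-value can be given. Arrays of mice without fenofibrate were not analysed here, so a difference between genotypes in the absence of the drug and a difference in the response to it cannot be told apart. In bulk liver, a difference in the share of a cell type and one in RNA per cell cannot be told apart either.

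Metallothioneins are small cysteine-rich proteins that bind zinc and copper and buffer free zinc in the cell. Free zinc activates the transcription factor encoded by Mtf1, which binds metal response elements in the promoters of Mt1, Mt2 and the exporter gene Slc30a1. Mt1 and Mt2 are also known to be induced in liver by glucocorticoids, inflammation, fasting and oxidative stress. SLC30 (ZnT) proteins carry zinc out of the cytosol and SLC39 (ZIP) proteins carry it in, and some members of both families carry manganese.

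Signals are in array units, scaled by the authors to a mean of 1000 per array. The floor of an array is the median signal of its probe sets other than controls (269.4 for null, 287.8 for wild type). Log2 ratios are null over wild type, with dimmer signals set to the floor, and each gene is represented by its brightest probe set. A gene is called measured if either array reached its floor, and 2-fold apart when the ratio reached 2 in either direction. On the null array Ppara itself had 36.0% to 50.6% of the wild-type signal at its 3 probe sets. Where in the gene the null allele is disrupted is not stated in the labels, so these probe sets do not check the genotype.

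The promoters of Mt1 and Mt2 are shown because these are the 2 members that stood apart between the genotypes, and because metal response elements in them are known sites of MTF1. In the RefSeq table of GRCm38.p6 these genes are neighbours on chromosome 8, with 0 protein-coding genes between them. Each window runs 5′ to 3′ on the + strand from 250 bases before the start site to 50 bases after it, at chr8:94178839-94179138 for Mt1 and chr8:94172368-94172667 for Mt2. Capitals mark matches, on either strand, to the core of the metal response element, searched as TGCACNC and TGCGCNC.
Mt1: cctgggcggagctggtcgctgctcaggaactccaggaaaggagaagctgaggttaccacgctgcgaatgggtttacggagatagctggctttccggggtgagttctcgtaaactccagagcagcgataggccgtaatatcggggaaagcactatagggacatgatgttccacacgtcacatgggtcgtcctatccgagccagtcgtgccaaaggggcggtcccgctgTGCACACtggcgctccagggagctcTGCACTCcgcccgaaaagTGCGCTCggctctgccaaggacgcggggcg
Mt2: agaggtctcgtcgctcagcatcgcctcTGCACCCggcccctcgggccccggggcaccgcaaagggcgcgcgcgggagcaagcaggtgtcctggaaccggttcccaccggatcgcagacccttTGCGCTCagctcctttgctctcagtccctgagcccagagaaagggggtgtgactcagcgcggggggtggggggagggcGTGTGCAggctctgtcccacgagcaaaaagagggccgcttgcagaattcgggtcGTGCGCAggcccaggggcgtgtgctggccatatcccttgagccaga

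The Mt1 window held 3 matches, all on the strand of the gene, which began at bases -23, 3 and 21 from the RefSeq start site. The Mt2 window held 4, at -223 and -128 on the strand of the gene and at -50 and 5 on the other strand. None of these overlapped another. Of 32851 promoter windows of this length outside chromosome 18, 25.7% held at least 1 match, 1.97% held at least 3 and 0.517% held at least 4. Among the other members with a window in the table, Slc30a1 had 2 matches and Slc30a10 had 3, of which 2 overlap on opposite strands. Slc39a8 had 1 match in one of its 2 windows and 0 in the other, and Mtf1 had 0. A match is a description of the letters and does not show that a factor binds there. Whether transcription in liver begins at the RefSeq start sites was not checked. Matches at positions after a start site are therefore not shown to lie inside a transcript. Bases outside the windows were not searched, so these are not counts for a whole promoter.

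Mt2 and Mt1 had higher signals in null liver, and the other 6 members lay within 2-fold. Thus 2 of the 8 members were at least 2-fold higher in null and 0 were at least 2-fold lower. Over all 13041 measured genes these shares were 2.80% and 4.99%, and since the members were chosen with these signals known, nothing is read from the difference. At the level of probe sets, 2 of the 17 measured among the members were at least 2-fold higher and 0 were lower, where the shares over all 22323 measured probe sets were 3.15% and 4.65%. All 8 members were above the floor on both arrays at their brightest probe set. Of the 19 probe sets, 16 were above it on both arrays, 1 on the wild-type array only, and 2 on neither.

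**Figure D1:**
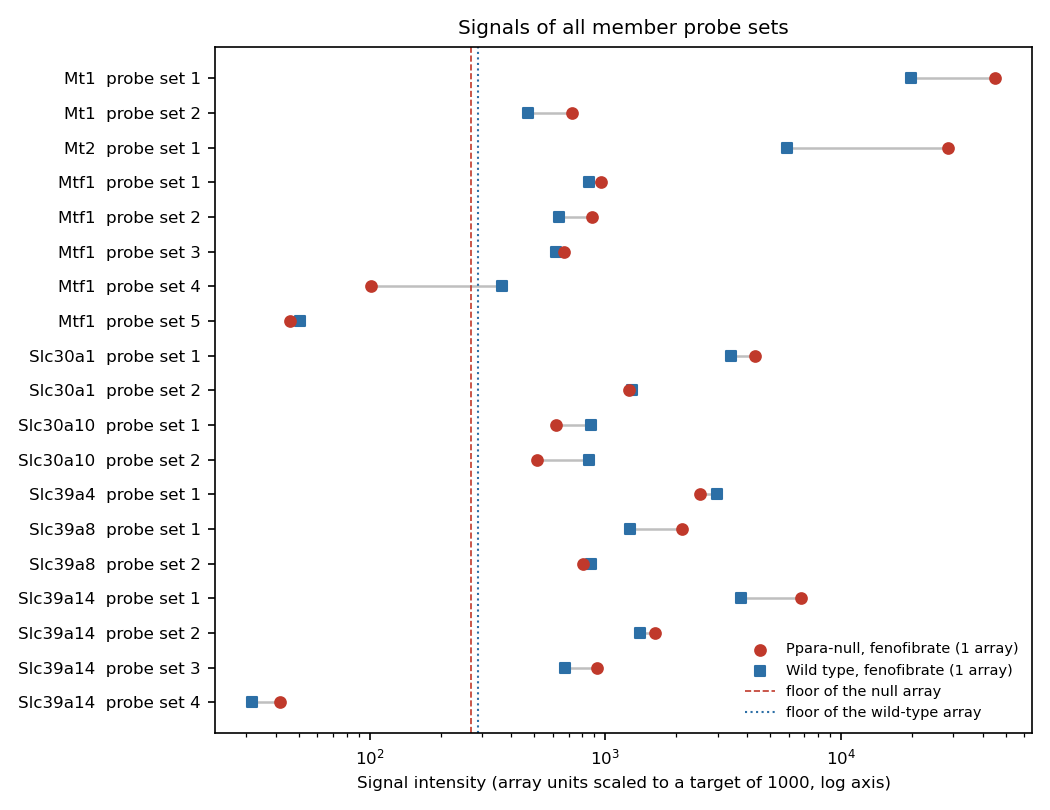
Signal intensity (array units, log axis) of each of the 19 probe sets of the members, with the Ppara-null array as red circles and the wild-type array as blue squares, 1 array each, and vertical lines at the 2 floors. The brightest Mt1 probe set lies at 45011 in null against 19741 in wild type, and Mt2 at 28597 against 5906. Most other pairs of points lie close together.

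Mt2 gave a signal of 28597 on the null array, against 5906 on the wild-type array, which is 4.84-fold higher in null (log2 ratio 2.28). Only 1 probe set carries its symbol, so there is no second one on the array to compare. Among the 10060 genes above the floor on both arrays, Mt2 had the 5th highest log2 ratio. Its signals were 106 times the floor in null and 20.5 times the floor in wild type, well away from the dim range.

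Mt1 gave 45011 on the null array, against 19741 on the wild-type array, 2.28-fold higher in null (log2 ratio 1.19) and the 117th highest ratio. This probe set carries the suffix _s_at, with which the platform marks probes that match more than 1 transcript, and the sources used here do not say which. The other Mt1 probe set gave 724.6 in null against 468.0 in wild type, a log2 ratio of 0.63 in the same direction at 2.69 and 1.63 times the floor. The 2-fold call of Mt1 thus rests on 1 probe set. The 2 Mt1 probe sets lay 0.56 apart on the log2 scale. The pooled SD of probe sets within a gene was 0.42 across 3917 genes. That SD describes scatter inside this pair of arrays and leaves out differences between mice.

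By the geometric mean signal of both arrays, Mt1 and Mt2 are among the 989 genes at or above 10000. Mt2 is there through its null signal of 28597, against 5906 in wild type. Of these 989 genes, 16 (1.62%) were at least 2-fold higher in null, Mt1 and Mt2 included. The cut uses the null signal too, so nothing is read from this share. Log2 ratios of genes above the floor on both arrays lay between -0.88 and 0.78 for the middle 90%, and 3 members (Mt2, Mt1 and Slc39a14) lay outside that range.

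**Figure D2:**
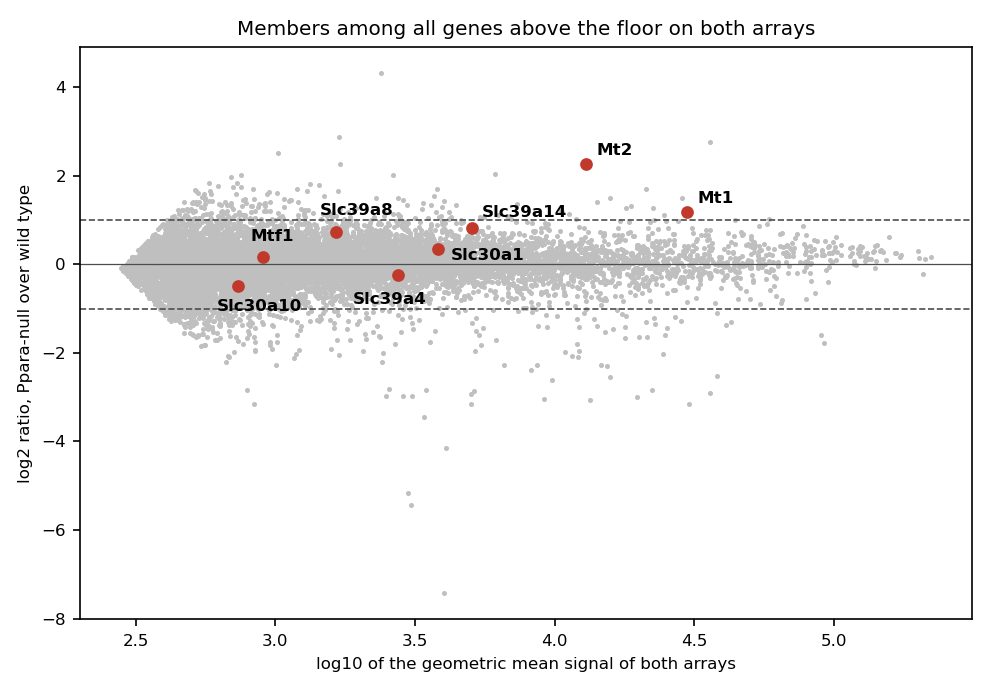
Log2 ratio of null over wild type against log10 of the geometric mean signal, for the 10060 genes above the floor on both arrays (grey) with the 8 members in red; dashed lines mark 2-fold. Mt2 (2.28) and Mt1 (1.19) lie above the upper line at the bright end, while the other 6 members lie between the lines.

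The remaining metallothioneins were dim. Mt3, known mainly from brain, gave 353.0 in null, which is 1.31 times the floor, against 41.8 in wild type, under the floor. Mt4, known from stratified epithelia, was under the floor on both arrays (209.4 in null and 39.9 in wild type). Mt3 was thus at least 1.23-fold higher in null, a log2 ratio of 0.29 that became -0.08 when scaled to the hybridization controls. The Mt3 signal in null was also under the brightest control probe set for Bacillus transcripts on that array (422.4), and with floors at these controls it was not measured.

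Mtf1, which encodes the zinc sensor that drives Mt1 and Mt2 transcription, lay within 2-fold between the genotypes. Its brightest probe set gave 955.4 in null against 856.9 in wild type (log2 ratio 0.16). The next gave 877.7 against 636.8 (0.46), and the third 670.8 against 619.0 (0.12). All 3 were higher in null by less than 2-fold, and the log2 ratio of the brightest turned to -0.22 when the arrays were scaled to their hybridization controls. Another probe set gave 101.4 in null, under the floor, against 366.1 in wild type, at least 1.36-fold lower. The remaining probe set was under the floor on both arrays, at 45.8 in null and 50.7 in wild type.

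Both exporters among the members lay within 2-fold. Slc30a1, the zinc exporter of the plasma membrane and a target of MTF1, gave 4307 in null against 3406 in wild type (log2 ratio 0.34, or -0.04 when scaled to the hybridization controls). Its other probe set gave 1260 against 1299.8 (-0.04), so the probe sets did not share a direction. Slc30a10, which exports manganese, gave 618.7 in null against 870.1 in wild type (log2 ratio -0.49). Its second probe set gave 513.5 against 850.1 (-0.73). Both were lower in null, at signals of 1.91 to 3.02 times the floor.

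Of the 3 importers among the members, Slc39a14 had the largest ratio. This transporter of zinc, manganese and iron is known in mouse hepatocytes for its induction by interleukin-6. It gave 6743 in null against 3784 in wild type at its brightest probe set, 1.78-fold higher (log2 ratio 0.83, rank 425). The other 2 probe sets above the floor gave 1630 against 1402 (0.22) and 926.3 against 672.1 (0.46). All 3 pointed the same way, but the brightest gave a much larger ratio than the others, and the dimmest was under the floor at 41.7 in null and 31.8 in wild type. With the median over its probe sets, the one under the floor included, Slc39a14 had a log2 ratio of 0.34.

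Slc39a8, which imports zinc and manganese, had probe sets that disagreed. The brighter gave 2125 in null against 1279 in wild type, 1.66-fold higher (log2 ratio 0.73). The dimmer gave 803.1 against 866.4 (-0.11). Slc39a4, the importer of dietary zinc in the intestine that is mutated in human acrodermatitis enteropathica, gave 2534 in null against 2994 in wild type (log2 ratio -0.24) at its single probe set.

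In order of log2 ratio from the highest, the members ran Mt2, Mt1, Slc39a14, Slc39a8, Slc30a1, Mtf1, Slc39a4 and Slc30a10. Mt2 and Mt1 lay 1.09 apart on the log2 scale, and the other steps between neighbours ran from 0.10 to 0.40. Without replicates, no step in this order can be set against the spread between samples.

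The members were then set among their whole families. Of 24 genes on the array 20 were measured, of which 11 had a positive and 9 a negative log2 ratio. Their median was 0.11, while the median over all measured genes was -0.005. Of all 13041 measured genes, 6473 had a positive and 6567 a negative log2 ratio. Of the exporters, 7 of 10 were measured and 0 were 2-fold apart. Slc30a4 gave 1612 in null against 2329 in wild type (log2 ratio -0.53), and Slc30a9 gave 4072 against 2957 (0.46), the ends of the range. Between them lay Slc30a5 (0.34), Slc30a6 (0.20) and Slc30a7 (0.19), which carry zinc into the secretory pathway. The exporter median of 0.20 turned to -0.18 when scaled to the hybridization controls. Slc30a2, Slc30a3 and Slc30a8 were under the floor on both arrays. Slc30a8 is known as the exporter of insulin granules in pancreatic islets.

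Of the importers, 13 of 14 were measured, and 1 was at least 2-fold higher and 1 at least 2-fold lower in null. The higher one was Slc39a13, an importer of intracellular compartments, with 861.9 in null against 358.3 in wild type (2.41-fold). The wild-type signal was 1.24 times the floor, and the log2 ratio of 1.27 was 0.89 when scaled to the hybridization controls and 0.09 with the floor at the 75th percentile. The lower one was Slc39a5, known as an importer of the basolateral membrane in intestine and pancreas, with 79.6 in null, under the floor, against 1010 in wild type, at least 3.75-fold lower. With floors at the brightest Bacillus controls its log2 ratio was -1.26, and with the floor at the 75th percentile -0.30. Slc39a13 and Slc39a5 each have a single probe set. Of the others, Slc39a7, which releases zinc from the endoplasmic reticulum, gave 2696 in null against 1852 in wild type (log2 ratio 0.54). Slc39a6 gave 413.9 against 572.2 (-0.47). Slc39a10 (0.12), Slc39a2 (0.09), Slc39a11 (-0.02), Slc39a3 (-0.04), Slc39a9 (-0.10) and Slc39a1 (-0.21) lay close to 0, and Slc39a12 was under the floor on both arrays. The median of the importers was -0.02, and 0.07 after median centring of the arrays.

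**Figure D3:**
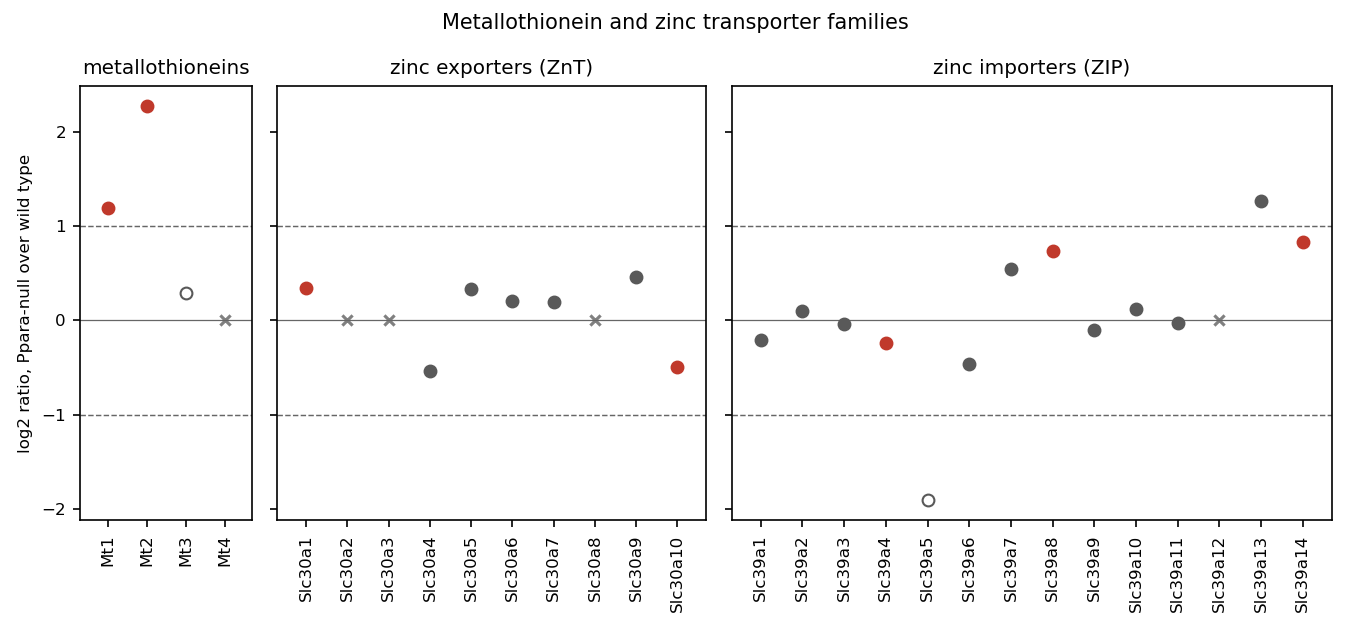
Log2 ratio of null over wild type for each metallothionein, zinc exporter and zinc importer gene on the array, with members in red. Filled points are above the floor on both arrays, open points on 1 array only, crosses on neither, and dashed lines mark 2-fold. Mt2, Mt1 and Slc39a13 lie above the upper line and Slc39a5 below the lower one.

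Genes with the ratio nearest to that of Mt2 or Mt1 were taken as those most like them in this pair of arrays, 3 on each side, measured by the distance in log2 ratio. Above Mt2 stood Slc22a7, an organic anion transporter (5.76-fold higher in null), Apoa4, an apolipoprotein (6.84-fold), and the noncoding RNA gene Meg3 (7.33-fold). Below it stood Rnasek (4.82-fold), the bile acid and organic anion transporter Slco1a4 (4.12-fold) and Gtf3c4 (4.07-fold). The closest was Rnasek, at a distance of 0.007, but its other probe set had a ratio of opposite sign (-0.22). Meg3 also had probe sets of both signs. With the median over probe sets, the log2 ratios were 1.02 for Rnasek, 0.75 for Meg3 and 0.26 for Gtf3c4. This median takes in probe sets under the floor, which Meg3 and Gtf3c4 have. Around Mt1 stood Atp6v0d2, Nckap1l and Anks1 above and Cyp4f14, Nfic and Orm3 below, all within 0.011 of its log2 ratio. Of these 6, Cyp4f14, a fatty acid omega-hydroxylase, was also bright (16087 in null against 7073 in wild type), and Nfic had a log2 ratio of 0.09 with the median over probe sets. Near the floor in wild type were Anks1 (1.18 times the floor), Nckap1l (1.16), Atp6v0d2 (1.17) and Orm3 (1.47). Beside Mt2, so were Gtf3c4 (1.3) and Slc22a7 (1.48). Mt1 lay at 68.6 times the floor on that array and Mt2 at 20.5. A like ratio on 2 arrays says nothing of a common regulator.

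Lists of genes that share a known regulator or a metal with the members were described by their counts and medians. Beside these counts, 6473 of all 13041 measured genes had a positive log2 ratio and 6567 a negative one. Of 6 other target genes of MTF1, 5 had positive log2 ratios and 1, Csrp1, was at least 2-fold higher in null (641.2, against 197.4 in wild type, under the floor), with a median of 0.24 that became -0.14 when scaled to the hybridization controls. Slc30a1 and Slc39a10 are in this list too. The list does not separate targets that MTF1 raises from any that it lowers, so the count of positive ratios is not a measure of its activity. Of 13 copper handling genes 0 were 2-fold apart, with 6 positive, 7 negative and a median of -0.18. Metallothioneins also bind copper. Of 9 genes of manganese handling 0 were 2-fold apart (median -0.01, or 0.09 after median centring), and the largest 3 ratios in size were those of Slc39a14, Slc39a8 and Slc30a10 themselves.

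Of 13 glucocorticoid-induced genes, 9 were positive and 4 negative, with a median log2 ratio of 0.36, or -0.02 when scaled to the hybridization controls. Igfbp1, which encodes a binding protein of insulin-like growth factors, was 2.44-fold higher in null (35307 against 14484). Angptl4, a lipoprotein lipase inhibitor and known PPARα target, had 6080 in null against 12181 in wild type, 49.9% of it and just past the 2-fold threshold. Of 18 interleukin-6 and acute phase genes, 14 were positive and 4 negative, with a median of 0.35 (-0.02 when scaled to the hybridization controls). Over all 13041 measured genes, 6473 were positive and 6567 negative. Orm3, an orosomucoid, was 2.27-fold higher in null, but its wild-type signal was 1.47 times the floor and a floor at the 75th percentile took the log2 ratio to 0.25. Socs3, a direct target of this pathway and 1 of the 4 negative genes, had a log2 ratio of -0.83. Of the 14 positive genes, Saa1 had 0.96 and Itih4 0.71. These 3 were picked out with their values known. Of 7 measured Nrf2 target genes of the oxidative stress response, 0 were 2-fold apart (median 0.08, or -0.30 when scaled to those controls). Lcn2 is in both the glucocorticoid and the interleukin-6 list, and Gclc in both the Nrf2 and the MTF1 target list. Whether any of these stimuli differed between the mice was not tested.

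**Figure D4:**
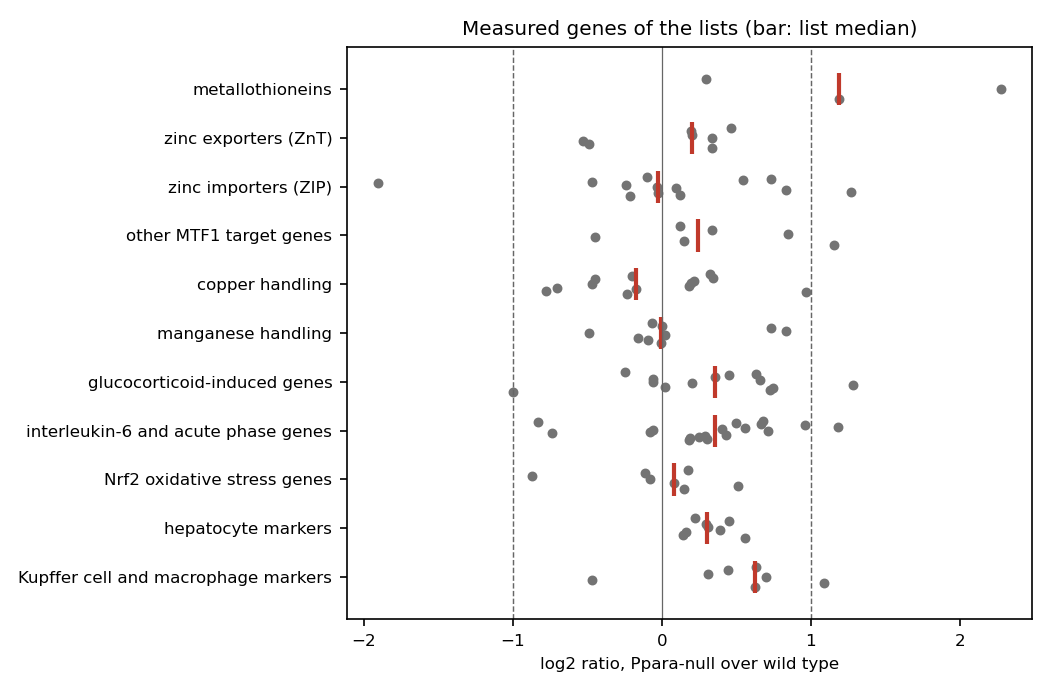
Log2 ratio of null over wild type of each measured gene in 9 lists of related genes and in hepatocyte and Kupffer cell markers; red bars are list medians and dashed lines mark 2-fold. The only bar past 2-fold is that of the metallothioneins (1.19), which is the value of Mt1 itself, the middle of 3 measured genes. Mt1 and Mt2 are members chosen with these signals known, so nothing is read from that bar. Scaling to the hybridization controls lowers it to 0.81. That scaling turns the medians of the glucocorticoid, interleukin-6, exporter, MTF1 target, Nrf2 and hepatocyte lists negative.

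Markers of liver cell types also differed between the arrays, and their part in the metallothionein signals was not tested. For comparison, 6473 of all 13041 measured genes were higher and 6567 lower in null. All 8 hepatocyte markers were higher in null, by log2 ratios of 0.14 to 0.56, with summed signals of 1219134 in null and 1011029 in wild type. One of them, Tat, is also in the glucocorticoid list. Their median of 0.30 became -0.08 when scaled to the hybridization controls. Of 7 measured Kupffer cell and macrophage markers 6 were higher in null, with summed signals of 21989 in null and 15075 in wild type. Cd5l was 2.12-fold higher. Cd68 went the other way, with 204.3 in null, under the floor, against 373.5 in wild type (log2 ratio -0.47). Marco was under the floor on both arrays (57.9 in null and 115.1 in wild type). Of 5 measured markers of stellate cells and fibroblasts 3 were higher and 2 lower in null (median log2 ratio 0.32), with sums of 24778 in null and 19813 in wild type. Of 6 endothelial markers 3 were higher and 3 lower (median 0.01), with sums of 12081 in null and 10949 in wild type. Of 3 erythroid markers, Alas2 made up most of the sums of 7759 in null and 4716 in wild type, with 7033 in null against 4190 in wild type. Slc4a1 was above the floor in null only (475.2 against 193.0), and Hba-a1 in wild type only (250.8 in null against 332.6 in wild type). Pecam1 was at least 2.36-fold lower in null, where it was under the floor (228.0 against 636.9), and its log2 ratio of -1.24 was -0.59 with floors at the brightest Bacillus controls. Neutrophil markers summed to 1229 in null and 1582.5 in wild type, with S100a8, S100a9 and Camp under the floor on both arrays.

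Of 5 T, B and NK cell markers on the array, Cd3e, Cd3d and Cd79a were under the floor on both arrays. Nkg7 (384.8 in null against 42.4 in wild type) and Ms4a1 (289.9 against 265.7) were above it in null only. Of 4 cholangiocyte markers, Krt7 was under the floor on both arrays. Epcam (551.7 in null against 107.5 in wild type) and Krt19 (340.3 against 224.8) were above it in null only, and Sox9 (168.2 against 434.4) in wild type only. All 3 adipocyte markers on the array, Adipoq, Lep and Retn, were under the floor too. For exocrine pancreas, Cpa1 and Ctrb1 were under the floor on both arrays, and Cela1 was 2.03-fold higher in null (5948 against 2934). Prss2 gave 967.4 in null against 621.9 in wild type at its brightest probe set. Another Prss2 probe set above both floors went the other way, with 446.6 in null against 530.8 in wild type (log2 ratio -0.25). When scaled to the hybridization controls the log2 ratios of Igfbp1 (0.91), Orm3 (0.80), Csrp1 (0.78), Cd5l (0.71) and Cela1 (0.64) were all under 2-fold.

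The direction of the Mt1 and Mt2 difference was the same in all 10 alternatives of scaling, floor and probe set choice, but the size was not. Several of these could not change it. The alternative floors left both ratios as they were, since both genes were above each floor. Mt2 has a single probe set, so the probe set choices left it at 2.28. The bacterial transcripts added to each hybridization as controls were brighter on the null array, by a median log2 ratio of 0.38 over 18 probe sets (0.12 to 0.73). Scaling to them lowers every ratio by that amount, which leaves Mt2 at 1.90 and puts Mt1 at 0.81, under 2-fold. The median of all measured genes then lies at -0.38, so Mt1 and Mt2 keep their distance from it. Without probe sets ending in _x_at or _s_at Mt1 had a log2 ratio of 0.63, and with the median over its probe sets 0.91.

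**Figure D5:**
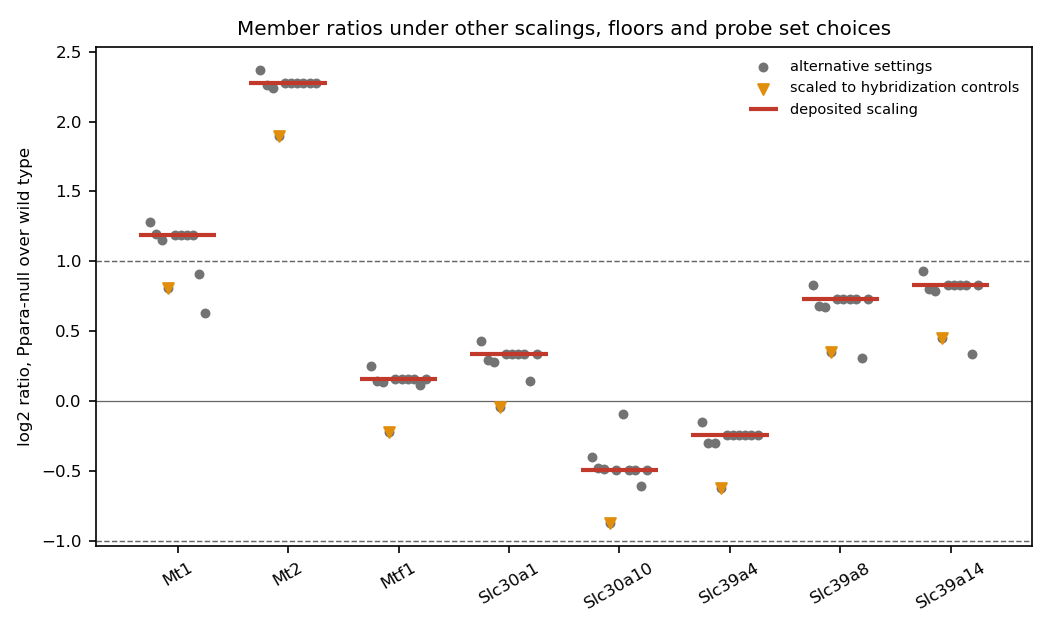
Log2 ratio of null over wild type of each member with the deposited scaling (red bar) and under 10 alternatives (grey points), with the scaling to hybridization controls as an orange triangle; dashed lines mark 2-fold. Mt2 stays between 1.90 and 2.37 and Mt1 runs from 0.63 to 1.28, while Mtf1 and Slc30a1 fall below 0 with the control scaling.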

How the data were processed

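Liver RNA of 2 groups, Ppara-null and wild type, each a pool of 3 mice on fenofibrate, was measured on 1 array per group. The deposited values are signal intensity values on a linear scale, 1 per probe set. Per the labels, these come from Affymetrix's statistical algorithm, scaled by the authors over all probe sets to a target of 1000, and the mean with 2% trimmed at either end was 1000.01 on each array. The software version and a genome build were not given in the sources. The labels repeat 1 set of scan readings for both arrays, which was not used.

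Gene symbols came from the platform annotation of 2016. Of 45037 probe sets other than the 64 controls, 34945 had 1 symbol, 932 several and 9160 none, and only the first kind was named. Gene identifiers of 34741 were found in the RefSeq table of GRCm38.p6. No coordinates are given for probe sets. Promoters are from RefSeq, GRCm38.p6, where 6 of the 8 members had a window. Floors, log2 ratios (null over wild type) and counts were computed in Python 3.11.15 with pandas 2.3.3, loess with statsmodels 0.14.6, and checked on simulated data. The members, gene lists and rules were chosen with earlier results of these data known. Genes named are the 8 members, all metallothionein and zinc transporter genes on the array, the 3 genes on either side of Mt1 and Mt2, Ppara, and up to 3 genes at 2-fold or more per other list. Other genes of these lists (Socs3, Saa1, Itih4, genes shared by 2 lists, and cell type markers that were dim or made up a sum) were named after their values were seen. Alternatives were median centring, quantile normalization, loess, scaling to hybridization controls, a floor at the 25th or 75th percentile or at the brightest Bacillus control, no floor, the median over probe sets, leaving out _x_at and _s_at probe sets, and thresholds of 1.5-fold and 3-fold. The number of arrays limits the precision.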

Additional observations from a re-analysis of the deposited data

How the results depend on the processing

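The count of members at least 2-fold higher in null, 2 as deposited, was 1 (Mt2) with scaling to the hybridization controls, with the median over probe sets, without _x_at and _s_at probe sets and with the 3-fold threshold, and 4 with the 1.5-fold threshold, which adds Slc39a8 and Slc39a14. The count of members lower in null was 0 under all 12 alternatives. Angptl4 turned to 0.93 with the median over probe sets, where a second probe set, at 62.5 in null and 8.6 in wild type and under both floors, enters. Over all genes, 365 were higher and 651 lower in null. Scaling to the hybridization controls gave 109 and 1759, the floor at the 25th percentile 1650 and 2336, that at the 75th percentile 98 and 157, no floor 2177 and 3096, the 1.5-fold threshold 1439 and 1925, and the 3-fold threshold 58 and 132. With floors at the brightest Bacillus controls 303 were higher and 297 lower. The share of calls that were higher in null was 35.9% as deposited, 5.84% with the control scaling and 50.5% with the Bacillus floors, and median centring gave 507 higher and 507 lower. Among the members, Mtf1 and Slc30a1 changed sign with the control scaling. The other 6 kept their sign in all 10 alternatives of scaling, floor and probe set choice. A floor leaves the ratio of a gene above it unchanged, so these 10 are not separate checks of the sign. Leaving out a replicate is not possible with 1 array per genotype, and ratios of dim probe sets are limited by signal over background.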
